A study of Rattus norvegicus with 6 samples.

Results

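DNA methylation was described along a 2.5 Mb interval of rat chromosome 1, from 202 to 204.5 Mb in build rn4, that was taken as the stretch with the imprinted Igf2 and Kcnq1 neighbourhood. All 315 probes whose start lay between these bounds were members, of 172669 on the array, and position alone decided membership. They form 31 promoter tiles, runs of probes in which each start follows the one before within 1000 bp, and all 31 were among the 15846 tiles tested. The tiles are numbered here from 1 to 31 in order of position. The cells were granulosa cells from ovaries of adult female Sprague Dawley offspring, sampled at postnatal day 56. Their dams were given water (control, 0 mg/kg, 3 arrays) or cadmium chloride at 8 mg/kg body weight (3 arrays) by gavage from gestation day 1 to 21. The arrays of a group are labelled as biological replicates, but the labels do not say if the DNA of an array came from a single animal or from several, or if the animals of a group came from separate litters. The p-values therefore measure the spread between these arrays. No transcripts were measured, so markers of granulosa cells could not be checked.

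Imprinted genes are expressed from the allele of 1 parent, and the allele is chosen by DNA methylation that is laid down in the germ line and kept in the cells of the body. The neighbourhood of Igf2, a growth factor of the fetus, and of the noncoding RNA H19 is controlled by a region that is methylated on the paternal allele, and the neighbouring domain of Kcnq1, a potassium channel gene, and Cdkn1c, an inhibitor of the cell cycle, by one that is methylated on the maternal allele. Granulosa cells surround the oocyte and make oestradiol, and Igf2 belongs to the growth factors that act in the ovarian follicle. In methylated DNA immunoprecipitation, an antibody captures DNA with methylated CG dinucleotides, so the captured signal depends on both the methylation and the number of CG sites.

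The files give each probe's position in rn4 and no gene name or sequence, and the gene tables used here follow another assembly, GRCr8, so no tile could be paired with a gene and the gene content of the interval was not checked. In the order of RefSeq genes on chromosome 1 of GRCr8, H19 is followed among the listed genes by Igf2, Ins2, Th, Ascl2, Tspan32, Cd81, Tssc4, Trpm5, Kcnq1, Cdkn1c, Slc22a18, Phlda2 and Nap1l4. RefSeq promoter sequences were found for 18 of 25 genes listed for this neighbourhood. They are printed for 3 of them, 5′ to 3′ on the gene's own strand (the minus strand of chromosome 1 in each case), as the 250 bases before the transcription start. They show how far neighbouring promoters differ in CG sites, which are in capitals. No array value is assigned to them.
Igf2, first listed start: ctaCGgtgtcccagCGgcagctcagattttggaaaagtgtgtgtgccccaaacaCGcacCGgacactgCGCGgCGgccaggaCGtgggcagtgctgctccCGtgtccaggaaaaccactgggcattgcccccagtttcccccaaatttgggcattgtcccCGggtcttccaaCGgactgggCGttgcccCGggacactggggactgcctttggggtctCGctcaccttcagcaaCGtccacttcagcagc
Igf2, second listed start: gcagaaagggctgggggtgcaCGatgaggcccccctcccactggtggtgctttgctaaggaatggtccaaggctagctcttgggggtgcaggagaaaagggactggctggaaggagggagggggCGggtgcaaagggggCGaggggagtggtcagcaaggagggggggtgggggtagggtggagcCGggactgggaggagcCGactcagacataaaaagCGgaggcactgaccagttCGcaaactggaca
Phlda2: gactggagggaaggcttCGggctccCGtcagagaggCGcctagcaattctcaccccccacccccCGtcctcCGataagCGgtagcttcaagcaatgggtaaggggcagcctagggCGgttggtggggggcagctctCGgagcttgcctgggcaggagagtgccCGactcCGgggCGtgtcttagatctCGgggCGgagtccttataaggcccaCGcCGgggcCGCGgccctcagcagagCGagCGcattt
Ins2: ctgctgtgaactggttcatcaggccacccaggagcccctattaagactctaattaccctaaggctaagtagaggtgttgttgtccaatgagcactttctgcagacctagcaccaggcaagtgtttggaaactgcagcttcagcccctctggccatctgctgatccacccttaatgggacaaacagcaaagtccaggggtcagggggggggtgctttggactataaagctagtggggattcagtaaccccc
The stretch before the first Igf2 start holds 15 CG sites and that before the second 7. Phlda2, a growth-restraining gene of the placenta, has 19, and Ins2, an insulin gene, has 0. Over all 33469 RefSeq promoters of the table the median was 5, and 25.8% held at least as many as the first Igf2 start and 18.4% at least as many as Phlda2. The 20 promoters of the listed genes had a median of 11, and 16 of them reached the median of all promoters.

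Each array carried immunoprecipitated DNA in Cy5 and input DNA in Cy3, so that a log2 ratio above 0 means more captured DNA, relative to input, than the middle probe of that array. Of the 315 probes, 228 (72.4%) were used; 48 had input signal that was not well above background on some array, and 39 more had an outlier spot. On the whole array 76.5% were used. Between 84.8% and 99.4% of the interval's probes per array had input well above background, and for immunoprecipitated DNA the share was 87.6% to 90.5%, and no probe was saturated. Cadmium replicate 2 stood apart: the standard deviation (SD) of its ratios over the 31 tiles was 0.516, against 0.784 to 0.852 on the other arrays. It also had the brightest input in the interval, with a median of 314 background-subtracted units against 51.2 to 109. Neither trait was particular to the interval. Over all tiles of the array its SD was 0.776 against 1.06 to 1.12, and its median input over all probes 313 against 63.1 to 124. Per the file headers it was scanned alone (scan 1), control replicates 1 and 2 with cadmium replicate 1 (scan 2), and control replicate 3 with cadmium replicate 3 (scan 3). Results are therefore given with and without cadmium replicate 2.

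Most tiles of the interval lay above the array median in both groups. The ratio was above 0 on all 6 arrays in 20 of 31 tiles (64.5%), below 0 on all 6 in 5, and of mixed sign in 6. Of the other 2166 tiles of chromosome 1, 29.8% were above 0 on all 6 arrays. Without cadmium replicate 2 the count in the interval was 21. The median control ratio was 0.53 in the interval and -0.36 in the other tiles of chromosome 1. Neither comparison with the rest of chromosome 1 is matched for probe length, which is taken up below. Tiles differed from each other far more than replicates did, with an SD of 0.82 over the control means of the 31 tiles against a median SD of 0.11 between control arrays of a tile. Between cadmium arrays the median SD was 0.25, and 0.077 without cadmium replicate 2.

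**Figure D1:**
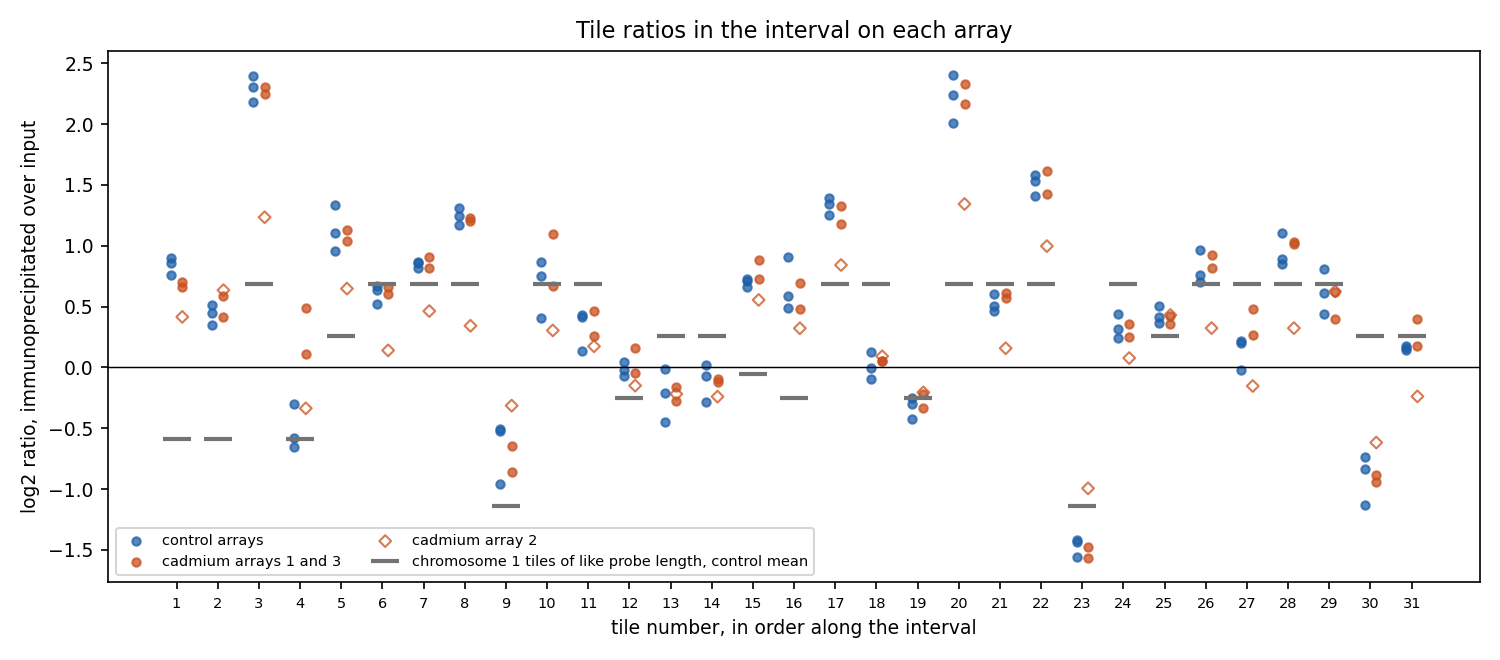
The log2 ratio of immunoprecipitated over input signal is plotted for the 31 tiles in order of position, with 1 point per array (control blue, cadmium orange, cadmium replicate 2 as open diamonds) and a grey bar at the control mean of chromosome 1 tiles of the same probe length class. Tiles 3 and 20 are the highest and tile 23 the lowest, and the open diamonds are the lowest points in 18 of 23 tiles with a control mean above 0.

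Over 2-fold enrichment (a log2 ratio above 1) on all 3 control arrays was seen in 5 tiles, numbers 3, 8, 17, 20 and 22. That is 16.1% of the interval's tiles, against 8.13% of the other tiles of chromosome 1, a share not matched for probe length. All 5 had a mean probe length of 45 to 46 bases. The other chromosome 1 tiles of that class averaged 0.69 in control. Tile 3 (202229306 to 202230409), with 6 usable probes, had ratios of 2.18, 2.40 and 2.30 on the control arrays and 2.31, 1.23 and 2.25 on the cadmium arrays. Tile 20 (203837344 to 203839056), with 8 usable probes, had 2.01, 2.24 and 2.40 on the control arrays and 2.16, 1.34 and 2.33 on the cadmium arrays. In both, 5 arrays lay close together above 2 and cadmium replicate 2 was lower, and these are the 2 tiles that stayed over 2-fold on all 6 arrays. Tile 22 (203878546 to 203880177) had 1.41, 1.53 and 1.58 on the control arrays and 1.61, 0.996 and 1.43 on the cadmium arrays. Tiles 17 (203343270 to 203344972) and 8 (202706011 to 202707799) had control means of 1.33 ± 0.071 and 1.24 ± 0.069 (SD, n = 3). In tiles 17 and 8 too, cadmium replicate 2 alone was below 1, at 0.84 and 0.34, so the same 5 tiles were over 2-fold on all arrays but that one.

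In tiles 3 and 20 cadmium replicate 2, whose ratios had a narrower spread over the whole array, stood apart in each channel. A channel's level, centred here on the array median, depends on the probes, so only arrays are compared within a tile. The immunoprecipitated signal of tile 3 was 2.15, 2.27 and 2.24 on the control arrays and 2.23, 1.86 and 2.02 on the cadmium arrays (log2), lowest on cadmium replicate 2. Its input was -0.12, -0.21 and -0.12 on the control arrays and -0.17, 0.51 and -0.28 on the cadmium arrays, highest on cadmium replicate 2. In tile 20 the immunoprecipitated signal was 1.00, 1.05 and 1.06 on the control arrays and 1.07, 0.83 and 0.99 on the cadmium arrays, again lowest on that array. The input of tile 20 was -1.10, -1.27 and -1.41 on the control arrays and -1.19, -0.62 and -1.39 on the cadmium arrays, and again highest on it.

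The lowest ratios belonged to tile 23 (203925804 to 203927398), which had -1.56, -1.42 and -1.44 on the control arrays and -1.47, -0.99 and -1.57 on the cadmium arrays. Averaged over its usable probes, it was the only tile depleted over 2-fold on all 3 control arrays. Of the other chromosome 1 tiles 27.9% were in this state, a share not matched for probe length. The 119 other chromosome 1 tiles with a mean probe length of 51 to 52 bases, as in tile 23, averaged -1.14 in control. Tile 30 (204244377 to 204245692) had -0.74, -0.83 and -1.13 on the control arrays and -0.89, -0.62 and -0.94 on the cadmium arrays. Tile 9 (202743850 to 202745632) had -0.51, -0.96 and -0.52 on the control arrays and -0.64, -0.31 and -0.86 on the cadmium arrays. In these tiles cadmium replicate 2 was the highest array, the reverse of its place in the enriched tiles: it was the lowest array in 18 of 23 tiles with a control mean above 0 and the highest in 4 of 8 with one below 0. The low means hold bright and dark probes side by side, and some of the dark ones had immunoprecipitated signal that was not well above background, among them the probe at 203925804 in tile 23 on 6 of 6 arrays, those at 204245176 and 204245494 in tile 30 on 5 and 6, and those at 202744555 and 202744719 in tile 9 on 6 and 3. The ratios of these probes are uncertain there, so the means of these 3 tiles, and their order, are not exact levels. In all, 14 of 31 tiles averaged at least 1 probe of this kind on all arrays of a group, and with both channels required above background the tiles above 0 on all 6 arrays numbered 27 in place of 20. That filter removes probes for weak captured signal and so favours a higher count, and the rise says nothing of the interval itself. In tile 30 the probe means over all arrays ran from -4.15 to 2.53, in tile 23 from -4.19 to 2.43 and in tile 9 from -4.51 to 1.56. The tile means leave out unusable probes, many of them bright. In tile 23 those at 203926612, 203926757 and 203927030, with dim input, had 1.68 to 5.93 on the control arrays. The probes left out had -0.44 to 3.47 in tile 9 and -3.43 to 2.74 in tile 30 on the control arrays. The low level of these tiles thus holds for their usable probes only.

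Averaged over usable probes, several tiles near the array median lay in the middle of the interval. From tile 11 to tile 14 (202825117 to 203172801) the control means were 0.32 ± 0.16, -0.018 ± 0.055, -0.22 ± 0.22 and -0.11 ± 0.16 (SD, n = 3). Tiles 18 and 19 (203364036 to 203383874), before the largest gap of 453470 bp without probes, had 0.0075 ± 0.11 and -0.33 ± 0.089 (SD, n = 3). The neighbours 12, 13 and 14 did not differ beyond the spread between replicates, and neither did 13 and 19. These means leave out unusable probes, most of them bright in tiles 11 to 14 and 19. On the control arrays those left out had 1.18 to 3.53 in tile 11, -1.56 to 4.35 in tile 12 and 1.04 to 3.78 in tile 13. The probe left out of tile 14 had 1.19 to 1.26. Those left out of tile 19 had 0.90 to 3.21, while the probe left out of tile 18 had -0.90 to -0.64. Neighbouring tiles were as unlike as any pair of tiles: the median step between neighbours was 0.74, and the median difference over all pairs 0.75 (control means). The remaining tiles, numbers 1, 2, 5 to 7, 10, 15, 16, 21, 24 to 29 and 31, had control means between 0.13 (tile 27) and 1.13 (tile 5), and tile 4 is described with the comparison of groups. Tiles 27 and 31 (0.16), towards the end of the interval, were nearer the array median than tile 11. The last tile before the interval (201740437 to 201742028) had a control ratio of 0.75 ± 0.042, and the first after it (204585065 to 204586807) 0.12 ± 0.079 (SD, n = 3).

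Tiles 5, 28, 7 and 26 were enriched on all 6 arrays without reaching 2-fold on each control. Tile 5 (202631049 to 202632733) had 0.96, 1.10 and 1.34 on the control arrays and 1.13, 0.65 and 1.04 on the cadmium arrays. Tile 28 (204171518 to 204173172) had 0.89, 1.10 and 0.85 on the control arrays and 1.03, 0.32 and 1.01 on the cadmium arrays. Tile 7 (202686334 to 202688085) had 0.85, 0.86 and 0.82 on the control arrays and 0.81, 0.46 and 0.90 on the cadmium arrays. Cadmium replicate 2 was the lowest array in each of these. Tile 26 (204119961 to 204121343) had 0.71, 0.96 and 0.76 on the control arrays and 0.82, 0.32 and 0.93 on the cadmium arrays, again with cadmium replicate 2 lowest. Tile 16 (203325993 to 203327764) had 0.59, 0.49 and 0.91 on the control arrays and 0.48, 0.32 and 0.69 on the cadmium arrays, and its groups overlapped. Tile 31 (204398561 to 204399968), the last of the interval, had 0.14, 0.18 and 0.16 on the control arrays and 0.17, -0.24 and 0.39 on the cadmium arrays, and cadmium replicate 2 alone was below 0.

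Tile 12 (202912726 to 202917967) is the longest tile, 5242 bp with 26 probes, of which 15 were usable. Its mean near 0 hides a sharp step. The first 7 usable probes, starting from 202912726 to 202915993, had control means of 0.25 to 2.07. The 2 probes at 202916795 and 202916943 were the highest of the tile, at 2.63 and 2.64. The next probe, 162 bp further on, fell by more than 5 log2 units in control, to -2.60, and the 5 probes from there to 202917967 were below 0 on every array, down to a control mean of -3.61, apart from the last probe on cadmium replicate 2 (0.31). The step was present on all 6 arrays. Of the last 5 probes, those at 202917105, 202917270, 202917593 and 202917751 had immunoprecipitated signal that was not well above background on 6, 6, 5 and 4 of 6 arrays. Their ratios are not exact levels there. Probe length moved with the step: the 10 probes before it were of 45 bases except one of 52, at -1.04, and the 5 after it of 46 to 60 bases. The part of probe length in the step was not tested.

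**Figure D2:**
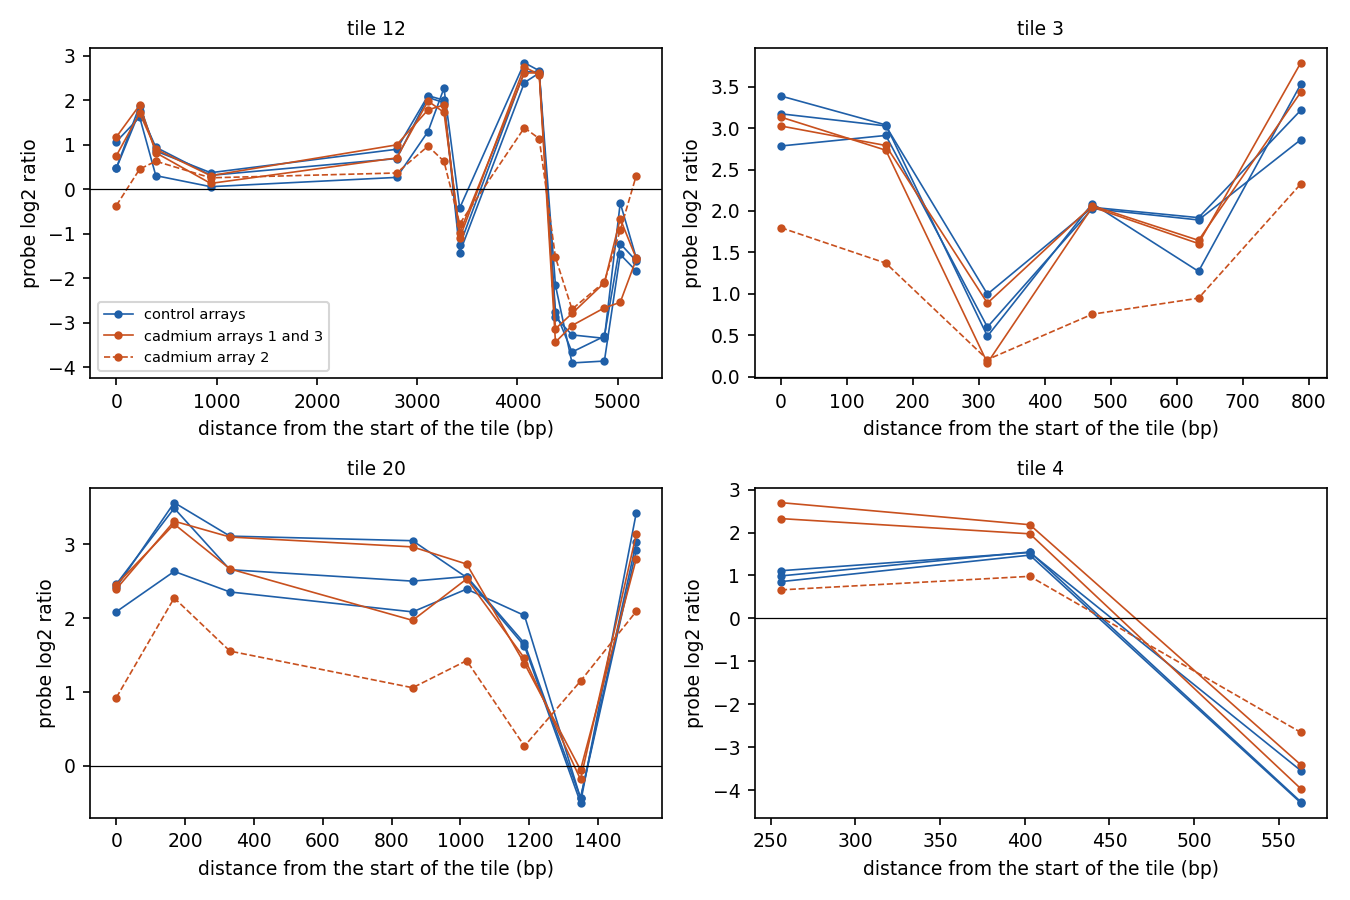
Probe log2 ratios are plotted against distance from the start of tiles 12, 3, 20 and 4 (in bp), with 1 line per array (control blue, cadmium orange, cadmium replicate 2 dashed). Tile 12 steps down on every array after 4217 bp, tiles 3 and 20 are above 0 at nearly all probes, and in tile 4 cadmium arrays 1 and 3 lie above the control arrays at the first 2 probes while cadmium replicate 2 lies below them.

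Each tile was divided by position into 3 equal parts, and probes of the middle part were compared with those of the outer parts. In the 30 tiles with probes in both places the middle was the lower in 12 in control and 13 in cadmium offspring, with median differences, middle minus outer, of 0.40 and 0.27. In the other chromosome 1 tiles with both (2050) the middle was lower in 51.3% and the median difference was -0.060 in control. The extremes in control were tile 9, with -3.47 and tile 1, with 2.90. Tile 1 (202029170 to 202030808) had probe means from -2.06 to 3.32.

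The ratio on these arrays followed probe length, and the interval is rich in short probes: 66.2% of its usable probes were of 45 bases, against 46.8% on the rest of chromosome 1. Each tile was therefore set against the other chromosome 1 tiles of the same class of mean probe length, 1 base wide. Without this, the mean of the 31 tiles was 0.47 ± 0.035 in control, 0.90 above the -0.43 ± 0.026 of the other chromosome 1 tiles (SD, n = 3). Tiles of the same probe length had 0.25 ± 0.036, which leaves 0.22 ± 0.021 for the interval in control, and with cadmium 0.21 ± 0.028 (SD, n = 3 each). The remainder was above 0 on each array: 0.22, 0.24 and 0.20 on the control arrays and 0.24, 0.18 and 0.22 on the cadmium arrays. It was 0.16 in control against all autosomal tiles matched in this way, 0.25 against chromosome 1 tiles within 10 Mb and 0.098 after normexp background correction. The arrays measure the same tiles, so this spread says nothing of other intervals, and no test of the level was made.

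**Figure D3:**
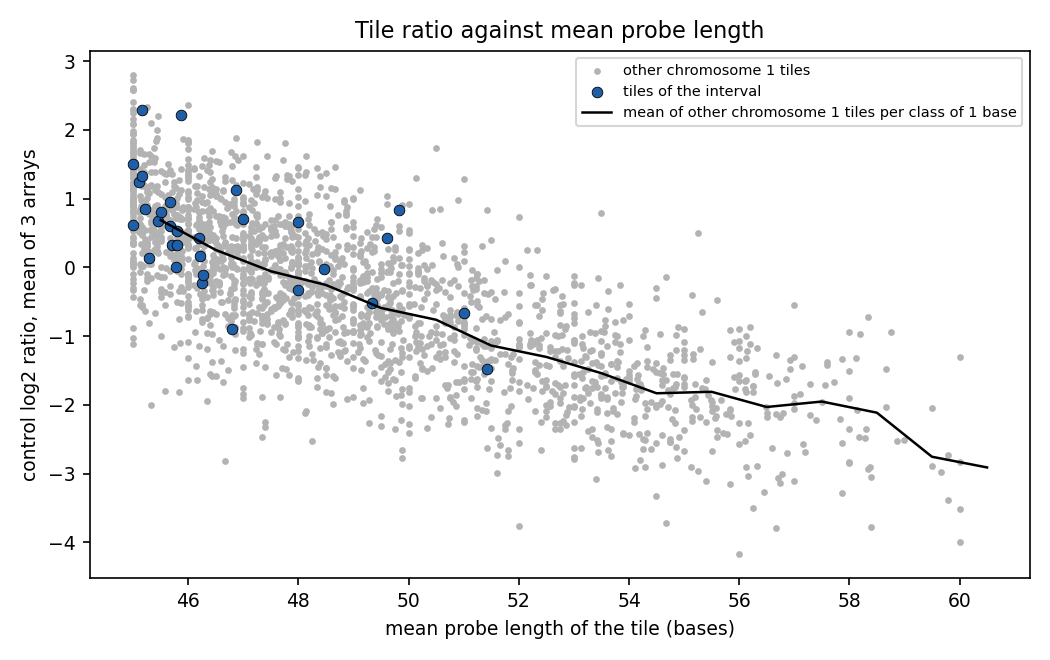
The control log2 ratio (mean of 3 arrays) is plotted against the mean probe length of each tile in bases, for the 31 tiles of the interval (blue) and the other 2166 tiles of chromosome 1 (grey), with their mean per class of 1 base as a line. The ratio falls as probes get longer, and the blue points gather at the short end on both sides of the line.

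The remainder was unevenly spread over the tiles. Of 31 tiles, 17 lay above the mean of their class in control and 18 in cadmium offspring, against 50.8% of the other chromosome 1 tiles in control. The median remainder over the 31 tiles was 0.12, against 0.015 for the other tiles. Over 1 log2 unit above their class were 4 tiles (12.9%), against 9.28% of the others: tile 3 by 1.60 ± 0.081, tile 20 by 1.53 ± 0.15, tile 1 by 1.43 ± 0.099 and tile 2 (202195045 to 202196704) by 1.02 ± 0.11 (SD, n = 3). Tile 3 was above 97.6% of the 332 chromosome 1 tiles of its class and tile 20 above 97%. Tile 1 was above 97.2% of its 216 and tile 2 above 91.7%. The level of tile 2 rests on 1 usable probe, at 202196487, with a control mean of 3.03. Its other usable probes had control means of -0.55 to 0.14. Probes of 56 and 57 bases put the tile in the class of 49 to 50 bases, though its other usable probes were of 45. The probes left out of tile 2 had 1.26 to 3.43 on the control arrays. Tile 30 was the one furthest under its class, at -1.16 ± 0.23 (SD, n = 3), with 7.06% of 326 tiles below it. By class, the 16 tiles of 45 to 46 bases averaged 0.90 against 0.69 in the 332 other chromosome 1 tiles. The 6 of 46 to 47 bases averaged 0.081 against 0.25, and the 1 of 47 to 48 bases had 0.70 against -0.055. The 3 of 48 to 49 bases averaged 0.11 against -0.25, and the 2 of 51 to 52 bases -1.07 against -1.14. The 3 of 49 to 50 bases, tiles 1, 2 and 4, averaged 0.25 against -0.59.

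The next comparison asked whether the interval differed between offspring of control and cadmium-treated dams. As a whole it did not differ beyond the spread between arrays. The mean over the 31 tiles was 0.43, 0.49 and 0.49 on the control arrays and 0.51, 0.22 and 0.51 on the cadmium arrays. Cadmium replicate 2 was the lowest array and the other 5 lay within 0.43 to 0.51, so the groups overlapped. The difference of -0.053 between the group means, 0.47 ± 0.035 and 0.42 ± 0.17 (SD, n = 3 each), had an exact two-sided permutation p of 1, where 0.1 is the smallest that 3 against 3 can give. It was 0.047 among the arrays of scan 2, 0.030 among those of scan 3, and turned to 0.043 without cadmium replicate 2. Relative to chromosome 1 tiles of the same probe length the difference was -0.0085 (exact two-sided permutation p = 0.7; 1 after adjustment over both comparisons), 0.0082 in scan 2, 0.014 in scan 3 and 0.0063 without cadmium replicate 2.

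**Figure D4:**
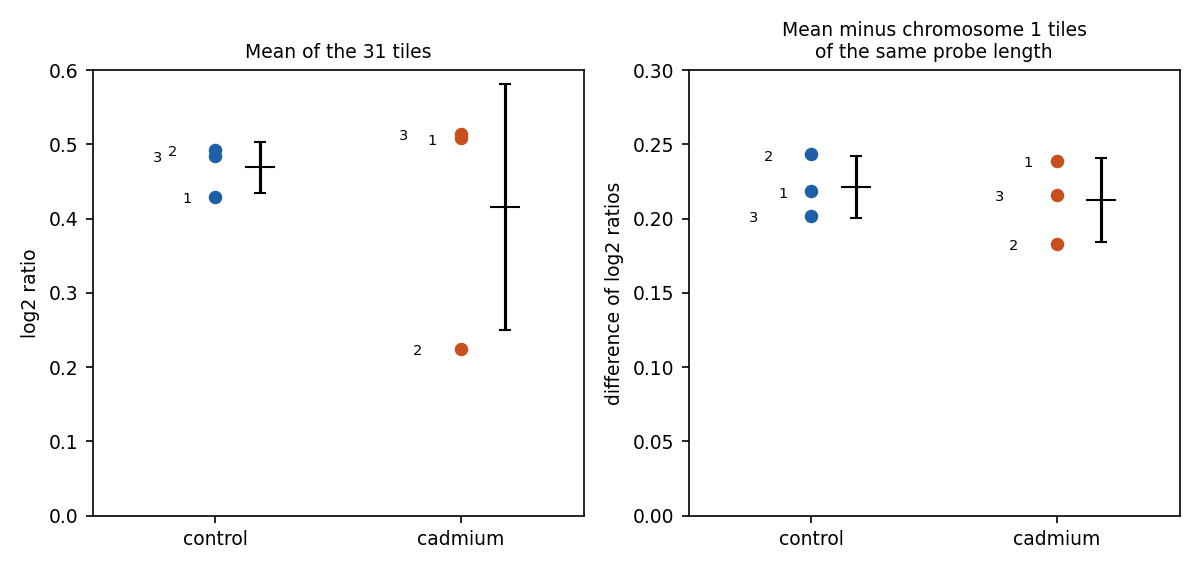
The mean log2 ratio of the 31 tiles (left) and its difference from chromosome 1 tiles of the same probe length (right) are plotted for each array, with replicate numbers beside the points and bars for the group mean ± SD (n = 3). Cadmium replicate 2 lies at 0.22 on the left, far below the others, and at 0.18 on the right, next to them.

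No tile of the interval passed the test between groups (limma, lowest adjusted p = 0.856 after Benjamini-Hochberg adjustment over all 15846 tiles); on the whole array 0.00631% passed. At an unadjusted p under 0.05 there was 1 of 31, tile 4, which was higher in cadmium offspring, against 3.57% of all tiles in either direction and 3.26% with cadmium higher. The interval held 12 tiles with a higher mean in cadmium offspring and 19 with a lower one, with a median difference of -0.051 against 0.028 over all tiles. Without cadmium replicate 2 the counts changed places, with 19 higher and 12 lower and a median of 0.012 against 0.040. Over all tiles of the array, 56.2% had a higher mean in cadmium offspring, and 65.5% without cadmium replicate 2. The 95% confidence interval of a tile's difference reached a median of 0.33 to either side, and in 30 of 31 tiles it lay within 1 log2 unit of 0. The groups did not overlap in 1 tile, tile 1, which was lower in cadmium offspring; 10.2% of all tiles did not overlap (2.28% with cadmium lower and 7.95% with cadmium higher). Tile 1 had ratios of 0.86, 0.90 and 0.76 on the control arrays and 0.70, 0.41 and 0.66 on the cadmium arrays. Its difference was -0.25 (standard error, SE, 0.12; limma adjusted p = 0.856), -0.18 in scan 2, -0.095 in scan 3 and -0.16 without cadmium replicate 2. Among the 10 tiles with the smallest p, tiles 3, 5, 8, 16, 17, 20 and 22 had differences of -0.36 (tile 3) to -0.16, which without cadmium replicate 2 were -0.075 to 0.028. Tile 2 had 0.44, 0.51 and 0.35 on the control arrays and 0.58, 0.63 and 0.41 on the cadmium arrays, a difference of 0.11 (SE 0.12), and its groups overlapped.

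**Figure D5:**
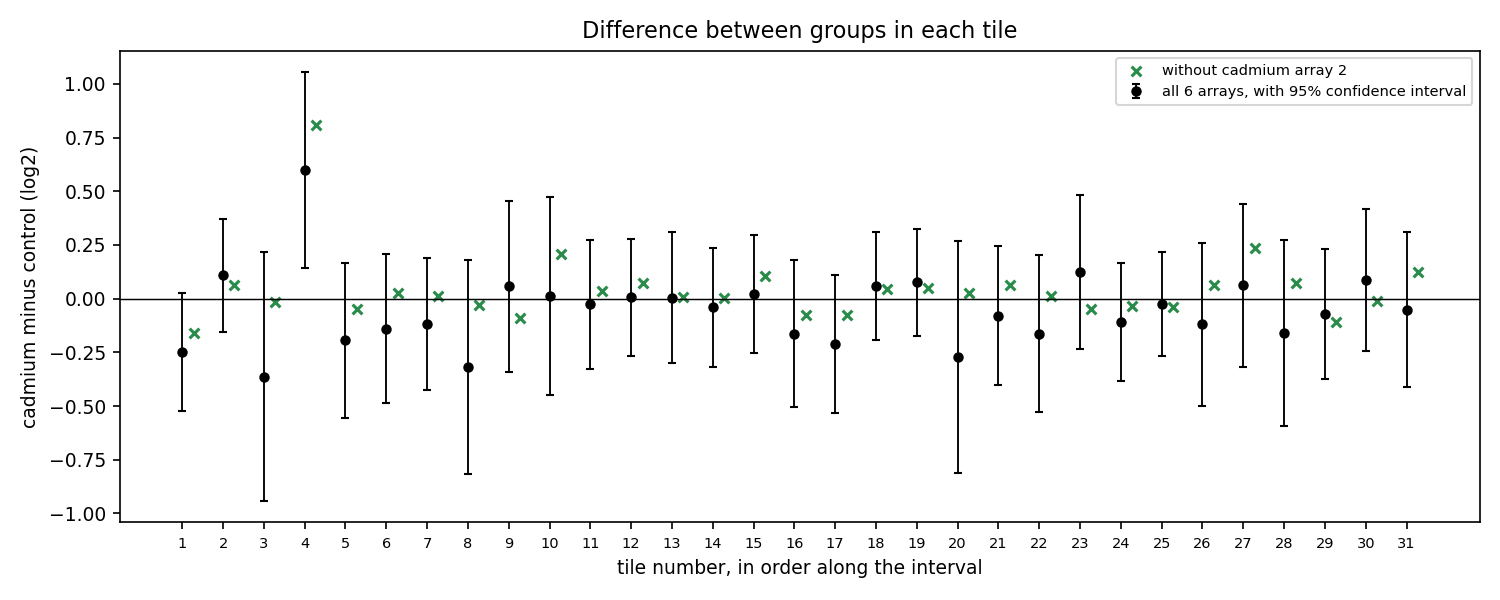
The difference of the log2 ratio, cadmium minus control, is plotted for the 31 tiles with its 95% confidence interval from limma (n = 3 each), and crosses give the difference without cadmium replicate 2. The interval of every tile except tile 4 includes 0, and the crosses lie nearer to 0 than the points in tiles 3, 8 and 20.

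Tile 4 (202539293 to 202539909, 617 bp) is the shortest tile of the interval, with 4 probes of which 3 were usable. Its ratio was -0.58, -0.66 and -0.30 on the control arrays and 0.11, -0.34 and 0.49 on the cadmium arrays. Cadmium replicates 1 and 3 lay above all control arrays and cadmium replicate 2 among them. The difference of 0.60 (SE 0.20, 95% confidence interval 0.14 to 1.05) did not pass (limma adjusted p = 0.856). It was 0.73 in scan 2, 0.79 in scan 3 and 0.81 without cadmium replicate 2 (limma adjusted p = 0.179). The tile passed with scan as a block, to which cadmium replicate 2, alone in its scan, adds nothing (difference 0.75, limma adjusted p = 0.00246), and with array weights (0.96, limma adjusted p = 0.00221), but not with scan as a random block (limma adjusted p = 0.0717). These settings raised the calls over the whole array, from 1 of 15846 tiles to 24 with scan as a block, 106 with array weights and 6 with the random block. Over all 23 alternatives its adjusted p in limma ran from 0.00221 to 0.9995, and the difference was 0.23 with normexp, 0.39 in the deposited value table and 0.40 without cadmium replicate 3.

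In the mean of tile 4 the input DNA differed more than the captured DNA, though not at each probe. The immunoprecipitated signal was 0.80, 0.84 and 1.15 on the control arrays and 0.84, 1.14 and 1.00 on the cadmium arrays (log2, centred), and the groups overlapped, with a difference of 0.065 (SE 0.12, limma adjusted p = 0.999). The input was 1.28, 1.41 and 1.39 on the control arrays and 0.63, 1.37 and 0.45 on the cadmium arrays, so cadmium replicates 1 and 3 had weaker input than the other 4 arrays. That difference was -0.54 (SE 0.21, limma adjusted p = 0.919). By probe, the one at 202539549 differed by 0.91 and the next at 202539696 by 0.19, while the last at 202539856 had ratios far below 0 in both groups (-4.04 ± 0.43 and -3.34 ± 0.66, SD, n = 3 each). In the same order the input differed by -1.25, -0.17 and -0.21 and the immunoprecipitated signal by -0.33, 0.027 and 0.49. At the last probe the captured DNA thus differed more. The part of the input in the difference of the ratio was not tested.

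Each channel was also tested on its own. In the immunoprecipitated channel alone 0 of 31 tiles passed (0% of all tiles) and 0 had an unadjusted p under 0.05 (limma), against 3.13% of all tiles; 23 were lower in cadmium offspring and 8 higher, with a median of -0.044 against 0.0078 over all tiles. In the input channel 0 passed (0.00631% of all tiles) and 1, tile 4, had an unadjusted p under 0.05 (limma), against 1.56% of all tiles; 17 were higher and 14 lower, with a median of 0.023 against -0.027 over all tiles. These counts include cadmium replicate 2. The difference of the interval's mean immunoprecipitated signal was -0.037 with that array and -0.014 without it, and that of its mean input turned from 0.0067 to -0.053. The interval's mean input was 0.11, 0.068 and 0.053 on the control arrays and 0.047, 0.20 and 0.00051 on the cadmium arrays, highest on cadmium replicate 2.

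Single probes were tested in the same way. Of 228 usable probes 0 passed (limma, lowest adjusted p = 0.91 over all 132042 probes), and 0% of all probes did. At an unadjusted p under 0.05 there were 7, of which 5 were higher in cadmium offspring, against 3.13% of all probes. The groups did not overlap in 9 probes with cadmium higher and 9 with cadmium lower, against 8.82% of all probes in either direction. No run of at least 3 neighbouring probes with the same sign and an unadjusted p under 0.05 lay in the interval, of 14 on the array.

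The longest row was a pair at the dark end of tile 12. The probe from 202917593 to 202917651 had ratios of -3.86, -3.31 and -3.35 on the control arrays and -2.67, -2.08 and -2.10 on the cadmium arrays, and all 3 cadmium arrays lay above all 3 controls (limma adjusted p = 0.91). The immunoprecipitated signal was not well above background on any control array and on 2 of 3 cadmium arrays. Both group levels are therefore uncertain, and no size of a difference can be read from them. Its neighbour from 202917270 to 202917315 had -3.91, -3.66 and -3.27 on the control arrays and -3.06, -2.70 and -2.79 on the cadmium arrays. There the immunoprecipitated signal was not well above background on any of the 6 arrays, and no difference between groups can be read from it.

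The other 3 of the 5 probes with the smallest p lay in tiles 27, 17 and 13. The probe from 204154976 to 204155020 in tile 27 had -0.22, -0.28 and -0.21 on the control arrays and 1.07, 0.45 and 0.76 on the cadmium arrays, with all cadmium arrays above all controls (difference 0.99, SE 0.26, limma adjusted p = 0.91). The input there differed by -1.12 and the immunoprecipitated signal by -0.12. The probe from 203344454 to 203344499 in tile 17 had 2.94, 3.12 and 3.28 on the control arrays and 1.83, 1.88 and 2.61 on the cadmium arrays, with all cadmium arrays below all controls (difference -1.01, SE 0.29, limma adjusted p = 0.91). Again the input differed more (1.01) than the immunoprecipitated signal (0.015). The probe from 202936376 to 202936420 in tile 13 had -3.09 to -2.64 on the control arrays and -2.53 to -2.10 on the cadmium arrays (difference 0.66, SE 0.27, limma adjusted p = 0.91), and its immunoprecipitated signal was not well above background on 4 of 6 arrays.

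The highest usable probes lay in tiles 5 and 17. The probe from 202631678 to 202631722 in tile 5 had 5.07, 5.26 and 4.89 on the control arrays and 5.31, 3.53 and 5.23 on the cadmium arrays. This was the strongest enrichment among the usable probes of the interval on all 6 arrays. A probe of tile 23 left out for dim input, at 203926757, was higher on control replicate 3 (5.93) and cadmium replicate 3 (5.67). The probe from 203343270 to 203343314 in tile 17 averaged 3.43 over the 6 arrays, and that from 202631369 to 202631413 in tile 5 3.33. The lowest lay in tiles 9, 23 and 30, at 202744719, 203925804 and 204245494, with means of -4.51, -4.19 and -4.15 over the 6 arrays. Their immunoprecipitated signal was not well above background on 3, 6 and 6 of 6 arrays. Over the interval, 123 of 228 usable probes were above 0 on all 6 arrays and 55 below 0 on all 6, and 19 had immunoprecipitated signal not well above background on all arrays of a group.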

How the data were processed

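The signal intensity values deposited by the authors are, per the file headers, output of Agilent Feature Extraction 11.0.1.1 under a protocol for ChIP arrays: background-subtracted, with a linear dye factor per channel and no lowess step, on an array designed in build rn4. Cy5 marked immunoprecipitated and Cy3 input DNA, per the labels' protocols, on all arrays. The deposited log10 ratio column matched the processed signals within 0.01 (log2) for 99.4% of spots. The log2 values of the authors' deposited table, used as an alternative only, have unstated scaling and centring (column medians -0.034 to 0.027); they correlated at 0.874 to 0.882 with the scanner ratios, in the direction of Cy5 over Cy3, and the submitters' processing notes name limma.

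Log2 ratios of the processed signals were centred on each array's median. Control spots were left out, as were probes with dim input on any array or an outlier spot in either channel. Tiles with at least 3 usable probes were averaged. Tiles and probes of the whole array were fitted with lmFit and eBayes of limma 3.58.1 (R 4.3.3, data.table version 1.17.8), two-sided, without covariates, with Benjamini-Hochberg adjustment over the whole array at a threshold of 0.05. Single values per array were compared by exact two-sided permutation. The steps were tested on simulated data. The interval, the lists and the tests were chosen with earlier results of these data known. The rule for named tiles took the 10 highest, the 10 lowest and the 10 with the smallest p, and for probes the 3 highest, the 3 lowest and the 5 with the smallest p. Tiles 6, 10, 11, 15, 21, 24, 25, 27 and 29 fall outside it and are given only within a range or a block of neighbours. The listed genes were used only for their order and promoter sequences, since no rn4 gene table was given. The number of arrays limits the precision. Alternatives are given with the closing section.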

Additional observations from a re-analysis of the deposited data

How the results depend on the processing

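No tile or probe of the interval passed in limma under any other setting tried, except 1 tile (tile 4) with scan as a block and 1 (tile 4) with array weights; over the whole array 24 and 106 tiles passed under these, against 1. The mean difference between groups of -0.053 turned to 0.015 after quantile normalization, 0.040 with scan as a block and 0.016 in the deposited value table, and ran from -0.10 to 0.043 with 1 array left out. Its size relative to chromosome 1 tiles of the same probe length, -0.0085, turned to 0.0024 after loess, 0.016 after quantile normalization, 0.025 with equal spread of the arrays, 0.019 with normexp, 0.025 with medians of probes, 0.011 with scan as a block, 0.027 in the deposited table, 0.0018 against autosomal tiles and 0.00055 for the interval from 202.5 to 204.0 Mb, and ran from -0.022 to 0.0063 with 1 array left out. Neither difference has a settled sign; the causes were not tested. The level relative to matched tiles in control (0.22) stayed above 0: it was 0.098 with normexp, 0.32 with dim probes kept, 0.19 where both channels had to be above background, 0.24 with outlier spots kept, 0.24 with them missing, 0.24 with at least 5 probes, 0.16 in the deposited table, 0.16 against autosomal tiles, 0.25 within 10 Mb, 0.20 in the shorter interval and 0.90 without matching. With 1 array left out it ran from 0.21 to 0.23. Tiles above 0 on all arrays numbered 14 (loess) to 27 (both channels required above background, a filter that favours high ratios). The level and the count of tiles above 0 were put through the settings after the data had been seen. The probe at 202917270 in tile 12, with dim immunoprecipitated signal, had a difference of 0.76 that turned to -0.23 with normexp and -0.17 in the deposited table. Of 743 other fits of single tiles, 134 changed the sign of a difference, in 26 of 31 tiles; none of these had a called direction.

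Over all tiles, same-numbered arrays did not deviate together for numbers 1 and 2 (correlations of -0.19 and -0.10). Those of number 3, which share scan 3, did so in part (0.37), while those of number 1 share scan 2. As this did not hold for each number, the numbers were not taken as pairs. With the replicate block, 0 tiles of the interval passed (limma, 1 at an unadjusted p under 0.05), and the mean difference was -0.053.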

Other observations

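The interval was uneven along its length. By stretches of 500 kb from its start, the mean control ratio was 1.19 ± 0.072 in the first (3 tiles), 0.34 ± 0.077 in the second (10 tiles), 0.38 ± 0.037 in the third (6 tiles), 0.62 ± 0.089 in the fourth (5 tiles) and 0.31 ± 0.11 in the fifth (7 tiles; SD, n = 3 arrays each). Relative to chromosome 1 tiles of the same probe length, the first stretch lay 1.35 ± 0.089 above and the last at -0.19 ± 0.12 (SD, n = 3, control). The first stretch holds tiles 1, 2 and 3, which are 3 of the 4 tiles over 1 log2 unit above their class. Of these, tile 2 rests on 1 bright probe among its usable ones. The stretches were chosen after the data had been seen, and no test was made.

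The interval is denser in tiles than the rest of chromosome 1, with 31 in 2.5 Mb against a mean of 20.4 per 2.5 Mb elsewhere, and the gaps between its tiles ran from 2030 to 453470 bp. The probe left out of tile 4 for dim input, at 202539293, had ratios of 3.08, 3.51 and 4.18 on the control arrays and 4.80, 3.07 and 3.99 on the cadmium arrays.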
